A study of Mus musculus with 12 samples.

Results

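The genes examined here are 35 genes of glycolysis and of the response to low oxygen, followed in mouse dendritic cells grown from marrow. They were taken from a list of glycolytic enzymes, sugar and lactate carriers, oxygen sensors and targets of the hypoxia factor HIF-1, and each gene was represented by the probe set of highest mean signal among those annotated to it alone. Of the 35 genes, 33 had such a probe set and all 33 passed the filter on dim probe sets, among 12407 genes tested in all. Gpi1 (glucose phosphate isomerase) and Eno1 (the main enolase) were not analysed here. Marrow of BALB/c and BL6 mice aged 6 to 8 weeks was cultured in 20 ng/ml of the growth factor GM-CSF, which all groups received, over 10 days. From the start of culture the cells had no retinoid, all-trans-retinoic acid (RA, 10 nmol/ml as labelled, the ligand of retinoic acid receptors) or Ro41-5253 (Ro, 100 nmol/ml as labelled, an antagonist of retinoic acid receptor alpha), each without or with LPS (1 ug/ml), a bacterial cell wall component sensed by a Toll-like receptor. The 6 conditions were each measured on 1 BALB/c and 1 BL6 array, 12 arrays in all. When LPS was added relative to the other agents, and whether cultures of a strain came from separate animals, is not given in the sources used here, so the p-values reflect only how far these arrays scatter.

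Glycolysis turns glucose into pyruvate, and lactate dehydrogenase turns pyruvate into lactate, which leaves the cell through monocarboxylate carriers. Dendritic cells and macrophages stimulated through Toll-like receptors are known to increase this pathway. HIF-1 is a pair of proteins whose alpha chain, made from Hif1a, is marked for destruction by oxygen-dependent prolyl hydroxylases of the Egln family, and it binds a short core motif in the promoters of many glycolytic genes. Inflammatory signals can also stabilise it when oxygen is present.

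Array medians lay between 21.4 and 41.8, and the highest of them is called background below. The ratio of the 3' to the 5' control probe set of Gapdh, a sign of RNA quality, lay between 0.768 and 0.842. That of actin lay between 1.10 and 1.16. The Gapdh probe sets were close to the top of the scale, and whether this compressed their ratio was not tested. The dendritic cell markers Cd74 and H2-Ab1 (MHC class II antigen presentation) and Itgax were bright on all 12 arrays, whereas Flt3 lay between 4.89 and 101, on several arrays below background. Zbtb46 lay between 26.2 and 501, below background on the BALB/c RA array. Markers of other myeloid cells were bright too. Without LPS the macrophage and monocyte marker Csf1r lay between 9236 and 10905 and the granulocyte marker S100a9 between 3501 and 14816. The 4 T cell markers on the array did not pass the filter. Changes below are on the log2(signal + 16) scale, relative to the median change of all tested genes, given as value ± standard error, and folds are computed from them. The p-value tests the change before that median is subtracted, against 0, so a small relative change can have a small p where all genes shifted, and the reverse. "Rose" and "fell" are used of genes with a Benjamini-Hochberg adjusted p under 0.05 over all tested genes in limma whose absolute and relative changes had the same sign.

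Promoters of these genes are shown because many of them rose together with LPS and because the HIF-1 core motif can be searched in them. The windows hold the 250 bases before the start site, from RefSeq (GRCm38.p6), and capitals mark each match to ACGTG on either strand; CACGTG, also the core of the site bound by Myc-type factors, reads as a match on both strands.
Ldha, chr7:46845554-46845803, + strand: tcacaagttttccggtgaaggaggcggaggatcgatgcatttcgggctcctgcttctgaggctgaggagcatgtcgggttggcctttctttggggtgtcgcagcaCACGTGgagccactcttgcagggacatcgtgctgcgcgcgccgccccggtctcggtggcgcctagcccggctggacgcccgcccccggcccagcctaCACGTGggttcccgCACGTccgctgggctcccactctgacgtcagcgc
Pgk1, chrX:106186850-106187099, + strand: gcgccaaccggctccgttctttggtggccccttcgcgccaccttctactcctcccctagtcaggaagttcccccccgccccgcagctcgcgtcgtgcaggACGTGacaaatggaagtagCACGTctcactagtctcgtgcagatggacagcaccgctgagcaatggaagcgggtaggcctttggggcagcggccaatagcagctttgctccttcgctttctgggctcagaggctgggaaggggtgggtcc
Slc2a1, chr4:119108495-119108744, + strand: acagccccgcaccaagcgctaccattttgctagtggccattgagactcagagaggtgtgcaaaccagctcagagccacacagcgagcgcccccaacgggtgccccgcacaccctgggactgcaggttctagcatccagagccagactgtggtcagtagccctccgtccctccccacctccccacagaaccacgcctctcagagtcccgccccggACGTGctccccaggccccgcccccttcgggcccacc
Bnip3, chr7:138909507-138909756, - strand: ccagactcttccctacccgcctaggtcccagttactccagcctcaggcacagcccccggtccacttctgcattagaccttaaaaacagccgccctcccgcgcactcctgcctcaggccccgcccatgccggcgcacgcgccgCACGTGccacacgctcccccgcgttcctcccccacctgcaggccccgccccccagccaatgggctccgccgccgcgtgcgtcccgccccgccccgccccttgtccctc
P4ha2, chr11:54100674-54100923, + strand: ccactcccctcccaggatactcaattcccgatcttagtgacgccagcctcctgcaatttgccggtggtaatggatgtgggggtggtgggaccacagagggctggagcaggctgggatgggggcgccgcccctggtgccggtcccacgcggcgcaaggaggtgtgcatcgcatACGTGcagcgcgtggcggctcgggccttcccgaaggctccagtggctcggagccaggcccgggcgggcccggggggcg
Ldhb, chr6:142507958-142508207, - strand: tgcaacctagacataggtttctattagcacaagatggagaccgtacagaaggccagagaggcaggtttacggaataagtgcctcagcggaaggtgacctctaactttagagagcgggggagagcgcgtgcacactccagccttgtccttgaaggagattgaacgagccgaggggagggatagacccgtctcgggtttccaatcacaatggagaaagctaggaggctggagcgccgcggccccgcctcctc
The Ldha window held 5 matches when CACGTG is counted on both strands, that of Pgk1 2, those of Slc2a1 and P4ha2 1 each and that of Bnip3 2 (a single CACGTG). The window of Ldhb, the isozyme of Ldha, held none. The windows shown are examples, not chosen by a stated rule, and Ldha has a further window, not printed, that held none. Matches did not simply follow the direction of the LPS change. The windows of Adm, Eno2 and Tpi1, which rose, held none. Those of Slc16a1 and Pdk3, which fell at the deposited scaling, held 2 and 1. Among 33 of the 35 genes with an entry (all but Slc2a3 and Ndrg1), ACGTG was found in 23 of 47 windows (48.9%), against 16.6% of all 32851 promoter windows and 21.3% of those of the tested genes. The members were listed as glycolytic genes and HIF-1 targets, a class in which this motif is common. An excess over all promoters thus comes with the list and is no result of LPS or of retinoids. Median GC content was 60.4% in the members' windows, 59.6% in those of the tested genes and 52.4% in all. By gene, of those with an entry, 15 of 21 members that rose with LPS had a match in some window, and 5 of 10 of the tested members that did not. Over all genes with an entry the share was 18.5%, and over the tested genes 24.7%, so both groups of members lay above it, and their difference was not tested. A match is a description of letters, not a measured binding site.

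The first comparison asked how LPS changed these genes across the 3 retinoid conditions, with 6 arrays against 6. LPS raised 22 of the 33 genes and lowered 5, where over all tested genes 11% were higher and 46.3% lower. The median gene of the set rose by 1.05 relative to the median of all tested genes, which itself moved by -0.41. With quantile normalization, which removes that shift, 24 were higher and 2 lower, against backgrounds of 24.3% and 29%. All 22 rises passed under both scalings, whereas of the falls only those of Pfkfb4 and Ldhb did. For 8 members every LPS array lay above every array without LPS, and for 2 every one lay below. Over all tested genes these shares were 3% and 19.3%. Of those 8 members, P4ha2 passed the filter only through its LPS arrays. The 8 granulocyte markers tested all fell with LPS as well, their summed signal lying between 10393 and 47199 on arrays without LPS and between 337 and 3676 on arrays with it; their part in the results for LPS was not tested. In whole cultures such as these, fewer cells of a type and less RNA per cell cannot be told apart.

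**Figure D1:**
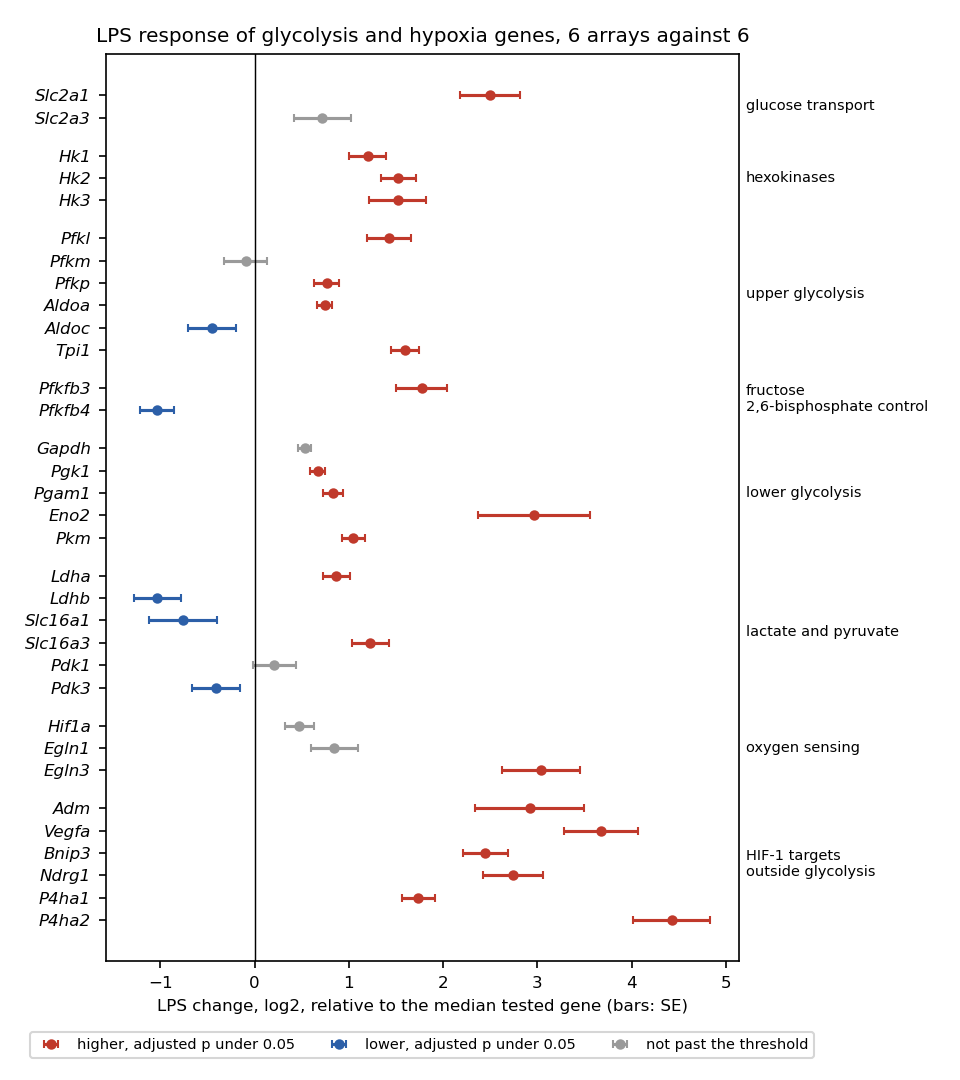
The change with LPS of each tested member on the log2 scale (x axis, relative to the median tested gene, bars show the standard error, 6 arrays against 6), grouped by role; the largest rise is that of P4ha2 at 4.43 and the lowest value that of Pfkfb4 at -1.04. Red points passed as higher, blue as lower and grey did not pass. P4ha2 passed the filter on dim probe sets through its LPS arrays alone.

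For glucose entry, the messenger levels of 2 facilitative transporters were measured, not uptake itself. The signals of Slc2a1 (GLUT1, the basal and inducible glucose transporter) had a lowest, median and highest value of 548, 945 and 1316 without LPS and 1671, 4485 and 8666 with it. Its groups did not overlap, and it rose by 2.50 ± 0.32 (adjusted p = 0.000147), a 5.64-fold change. Slc2a3 (GLUT3, a high-affinity transporter) had 62.1, 243 and 698 without LPS and 47.6, 301 and 927 with it, with wide overlap, and a change of 0.72 ± 0.30 that did not pass (adjusted p = 0.413). In cultures without retinoid Slc2a3 rose by 1.89 ± 0.34 (adjusted p = 0.00815).

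All 3 hexokinases, which trap glucose in the cell as glucose 6-phosphate, rose. Hk2, the inducible form bound to mitochondria, rose by 1.52 ± 0.19 (2.87-fold), from signals of 432, 761 and 1561 to 836, 2184 and 2581. Hk1 rose by 1.20 ± 0.20 and Hk3, the myeloid form, by 1.52 ± 0.30, with adjusted p = 0.0042 and adjusted p = 0.00745; their signals ran from 597 to 2252 and from 493 to 3462 over the 12 arrays. Hk2 overlapped between the groups through the Ro arrays with LPS, which lay below the BALB/c RA array without it.

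Of the upper steps of glycolysis, Tpi1 (triosephosphate isomerase) moved furthest, by 1.59 ± 0.15 (adjusted p = 3.2e-05), from 2923, 3685 and 5390.2 to 6291, 8983 and 11520.4 with no overlap. Pfkl, the liver form of phosphofructokinase, rose by 1.43 ± 0.24 and Aldoa, the main aldolase, by 0.74 ± 0.08, with signals from 317 to 2573 and from 7277 to 12522 over the 12 arrays. Pfkp, the platelet form of phosphofructokinase, rose by 0.76 ± 0.13 with adjusted p = 0.04. This call was kept under 9 of 24 alternatives. It was lost without the strain block (adjusted p = 0.161) or when 1 of 9 single arrays was left out. The mean of all probe sets (adjusted p = 0.154) and each strain alone did not keep it either. The dimmer Pfkp probe sets had 1.13 ± 0.17 and 0.23 ± 0.26, in order of falling mean signal. Pfkm, the muscle form, had -0.09 ± 0.23 and did not pass, with signals from 50.9 to 209. Aldoc, the brain-type aldolase, had 1168, 1515 and 1696 without LPS and 408, 869.6 and 1519 with it. It fell by 0.45 ± 0.25 on the log2 scale at the deposited scaling, with adjusted p = 0.0108 there and adjusted p = 0.0939 under quantile normalization. Its dimmer probe set (mean signal 95.2, above the array median on 7 arrays) gave a larger fall, -1.90 ± 0.20.

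The 2 members that act on the level of fructose 2,6-bisphosphate, the activator of phosphofructokinase, moved in opposite directions. Pfkfb3, whose enzyme mainly makes the activator, rose by 1.77 ± 0.27 (adjusted p = 0.00104), with signals from 198 to 1340.0. The signals of Pfkfb4 were 317, 548 and 838 without LPS and 135, 175 and 286 with it. Every LPS array of Pfkfb4 lay below every other, and it fell by 1.04 ± 0.18 on the log2 scale (2.05-fold lower, adjusted p = 3.4e-05).

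In the lower steps, Pkm (pyruvate kinase) rose by 1.05 ± 0.12, Pgam1 (phosphoglycerate mutase) by 0.83 ± 0.10 and Pgk1 (phosphoglycerate kinase) by 0.67 ± 0.08. Their signals ran from 3005 to 9022 for Pkm, 4188 to 8922 for Pgam1 and 9475 to 13409.5 for Pgk1. Eno2, the neuron-type enolase, had 11.6, 32.9 and 57.5 without LPS and 19.6, 181 and 1906 with it and rose by 2.96 ± 0.60 (adjusted p = 0.00283). Its mean without LPS was below background, so the size depends on the added 16 (3.45 with 1 added and 2.22 with 64). Within the LPS arrays Eno2 was 1906 and 1383 on the BALB/c arrays without retinoid and with RA, but at most 163 on the BL6 arrays, and it did not pass in BL6 alone (adjusted p = 0.12). Gapdh, measured here by control probe sets of the array, had 11913, 12496 and 13498 without LPS and 12891, 13842 and 14356 with it, close to the highest value in the table (17488): whether values this high are compressed was not tested. Its change of 0.53 ± 0.07, which is 0.12 before the median is subtracted, did not pass (adjusted p = 0.154), but did under quantile normalization (adjusted p = 0.0477). The other very bright members, Aldoa, Pgk1 and Ldha, reached 12522, 13409.5 and 14103, and Pgk1's dimmer probe sets gave larger changes (0.99 and 2.18).

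At the branch from pyruvate to lactate forms of the same enzyme or carrier moved in different directions at the deposited scaling. Ldha, the dehydrogenase subunit of muscle type that favours lactate, had 6515, 8392 and 9773 without LPS and 7969, 11627 and 14103 with it and rose by 0.87 ± 0.14 (adjusted p = 0.0173); without the BALB/c array of LPS alone the adjusted p was 0.0501. Ldhb, the heart-type subunit, had 223, 569 and 908 without LPS and 143, 165 and 223 with it. All LPS arrays of Ldhb lay below all others, narrowly for the BL6 array of LPS alone (223.1) and the BALB/c Ro array (223.4). It fell by 1.03 ± 0.24 on the log2 scale (2.04-fold lower, adjusted p = 0.000323). Its dimmer probe sets gave larger falls, -1.47 ± 0.25, -1.72 ± 0.23 and -1.65 ± 0.23 in order of falling mean signal. Slc16a3 (MCT4, the exporter of lactate in glycolytic cells) rose by 1.23 ± 0.20 (adjusted p = 0.00347) from 156, 216 and 275 to 282, 352 and 639, without overlap. Slc16a1 (MCT1) had 121, 216 and 255 without LPS and 19.8, 96.8 and 173 with it and fell by 0.76 ± 0.36 on the log2 scale, with adjusted p = 0.0139 at the deposited scaling and adjusted p = 0.193 under quantile normalization. Of the kinases that shut pyruvate dehydrogenase, Pdk1 had 0.21 ± 0.23 and did not pass (signals from 87.3 to 445). Pdk3 fell by 0.41 ± 0.26 on the log2 scale at the deposited scaling (signals 418, 1176 and 1702 without LPS and 438, 528 and 711 with it), with adjusted p = 0.0155 there and adjusted p = 0.124 under quantile normalization.

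The difference in LPS change between related genes was also taken within each of the 6 pairs of arrays that share strain and retinoid, for 12 gene pairs. The change of Ldhb minus that of Ldha was -1.89 ± 1.19 (log2, SD, n = 6 pairs), below 0 in 6 of 6 pairs. The same sign in 6 of 6 pairs was found for Pfkfb4 against Pfkfb3 (-2.81 ± 1.10), Slc16a1 against Slc16a3 (-1.99 ± 1.30), Slc2a3 against Slc2a1 (-1.78 ± 1.20), Aldoc against Aldoa (-1.20 ± 0.71), Egln1 against Egln3 (-2.19 ± 0.77) and, upwards, P4ha2 against P4ha1 (2.69 ± 1.31). Each of these 7 had a two-sided exact permutation p of 0.0312, the smallest that 6 pairs can give. After adjustment over the 12 gene pairs it was 0.0536, so none passed. With so few pairs of arrays no gene pair could pass on its own, so not passing decides nothing about any of them. The 6 pairs of arrays also span both strains and all 3 retinoid conditions, so they are not replicates of 1 condition. Hk3 against Hk2 differed by -0.01 ± 0.76 (exact permutation p = 0.969).

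Of the 3 oxygen sensing genes 1 passed. Hif1a had 1511, 2236 and 4403 without LPS and 1396, 3089 and 4621 with it, overlapping widely, and a change of 0.47 ± 0.15 (0.06 before the median is subtracted) that did not pass (adjusted p = 0.757, 0.25 under quantile normalization). The messenger level does not measure the protein. The 3 dimmer Hif1a probe sets had relative changes of -0.16 ± 0.18, 0.88 ± 0.21 and 0.64 ± 0.18, in order of falling mean signal. Egln1 (PHD2) had 419, 501 and 601 without LPS and 338, 717 and 1329 with it and 0.85 ± 0.25 (adjusted p = 0.151, and 0.0116 under quantile normalization). Egln3 (PHD3, itself a HIF-1 target) had 16.7, 73 and 280.2 without LPS and 291, 454 and 1669 with it, without overlap, and rose by 3.04 ± 0.41 (adjusted p = 0.000192).

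All 6 HIF-1 targets outside glycolysis rose, under both scalings. P4ha2, a collagen prolyl hydroxylase subunit, had 1.07, 6.62 and 23.5 without LPS and 152, 370.5 and 1001 with it. Its arrays without LPS were all below background. It rose by 4.43 ± 0.41 (adjusted p = 7.6e-06), and the size was 6.30 with 1 added and 2.89 with 64. P4ha2 was above the array median on 6 arrays, all with LPS, so it passed the filter through the LPS group alone. Its p and its lack of overlap are therefore no independent support. Vegfa, the angiogenic growth factor, had 41.5, 99.6 and 193 without LPS and 199.7, 1402 and 4053 with it, again without overlap. It rose by 3.68 ± 0.39 (adjusted p = 2.5e-05), 12.8-fold. Its dimmer probe set, above the array median on all 12 arrays, gave a smaller change of 2.77 ± 0.20. Adm (adrenomedullin, a vasodilator peptide) had 3.70, 24.8 and 54.6 without LPS and 43.4, 221 and 892 with it and rose by 2.92 ± 0.58, from a mean below background, but its Ro arrays with LPS (43.4 and 55.4) were near the highest arrays without it. Ndrg1, a stress-induced gene, had 265, 695 and 1369.5 without LPS and 499, 4548 and 6784 with it and rose by 2.74 ± 0.32 (6.67-fold). Bnip3, which acts in the removal of mitochondria, had 635, 1073 and 1554 without LPS and 2025, 4482 and 7742 with it with no overlap and rose by 2.45 ± 0.24 (5.46-fold). P4ha1, the other collagen prolyl hydroxylase subunit, had 222, 482 and 1045 without LPS and 636, 1177 and 2268 with it and rose by 1.74 ± 0.17 (3.34-fold).

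Genes of neighbouring pathways were taken from lists. Their counts stand against backgrounds of 11% higher and 46.3% lower genes at the deposited scaling and 24.3% and 29% under quantile normalization. Of 27 genes of pyruvate entry and the citrate cycle, 21 fell with LPS and none rose (17 and 1 under quantile normalization), led by the isocitrate dehydrogenase genes Idh2 (-2.06 ± 0.18) and Idh3a (-1.89 ± 0.19) and by fumarase, Fh1 (-1.85 ± 0.22). The list's median was -0.44. Of 9 genes of the pentose phosphate pathway, 7 fell under both scalings and none rose, including Rpia (-1.28 ± 0.19) and Taldo1 (-0.62 ± 0.11), with a median of -0.37. Of 12 genes of glycogen and gluconeogenesis, 5 rose and 5 fell (5 and 3 under quantile normalization), with Pgm1 (phosphoglucomutase) at 2.04 ± 0.21, Gbe1 (the glycogen branching enzyme) at 1.82 ± 0.27 and G6pc3, a glucose 6-phosphatase, at -1.02 ± 0.18. Of 30 further HIF-1 targets, 16 rose and 4 fell (19 and 3 under quantile normalization), with a median of 1.16. They included Hmox1 (heme oxygenase, 3.07 ± 0.18), Nos2 (the inducible nitric oxide synthase, 5.20 ± 0.34) and Plod2 (a collagen lysyl hydroxylase, 2.20 ± 0.26). Tfrc, the transferrin receptor gene, fell by 2.46 ± 0.35 on the log2 scale. Without LPS Nos2 was at most 4.88 and Plod2 at most 21.6, below background, so both sizes depend on the added 16. Both were above the array median only on LPS arrays (6 and 5) and passed the filter through those alone. Of 11 further oxygen sensing genes, Arnt, the partner chain of HIF-1, rose (1.64 ± 0.22) and 3 fell (4 and 2 under quantile normalization), among them Arnt2 (-1.20 ± 0.21) and Cited2 (-1.10 ± 0.36). Of 17 isozymes and transporters outside the members, 2 rose and 6 fell (2 and 3 under quantile normalization), shares near or below the background in both directions; the monocarboxylate carrier Slc16a7 had -1.79 ± 0.23.

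**Figure D2:**
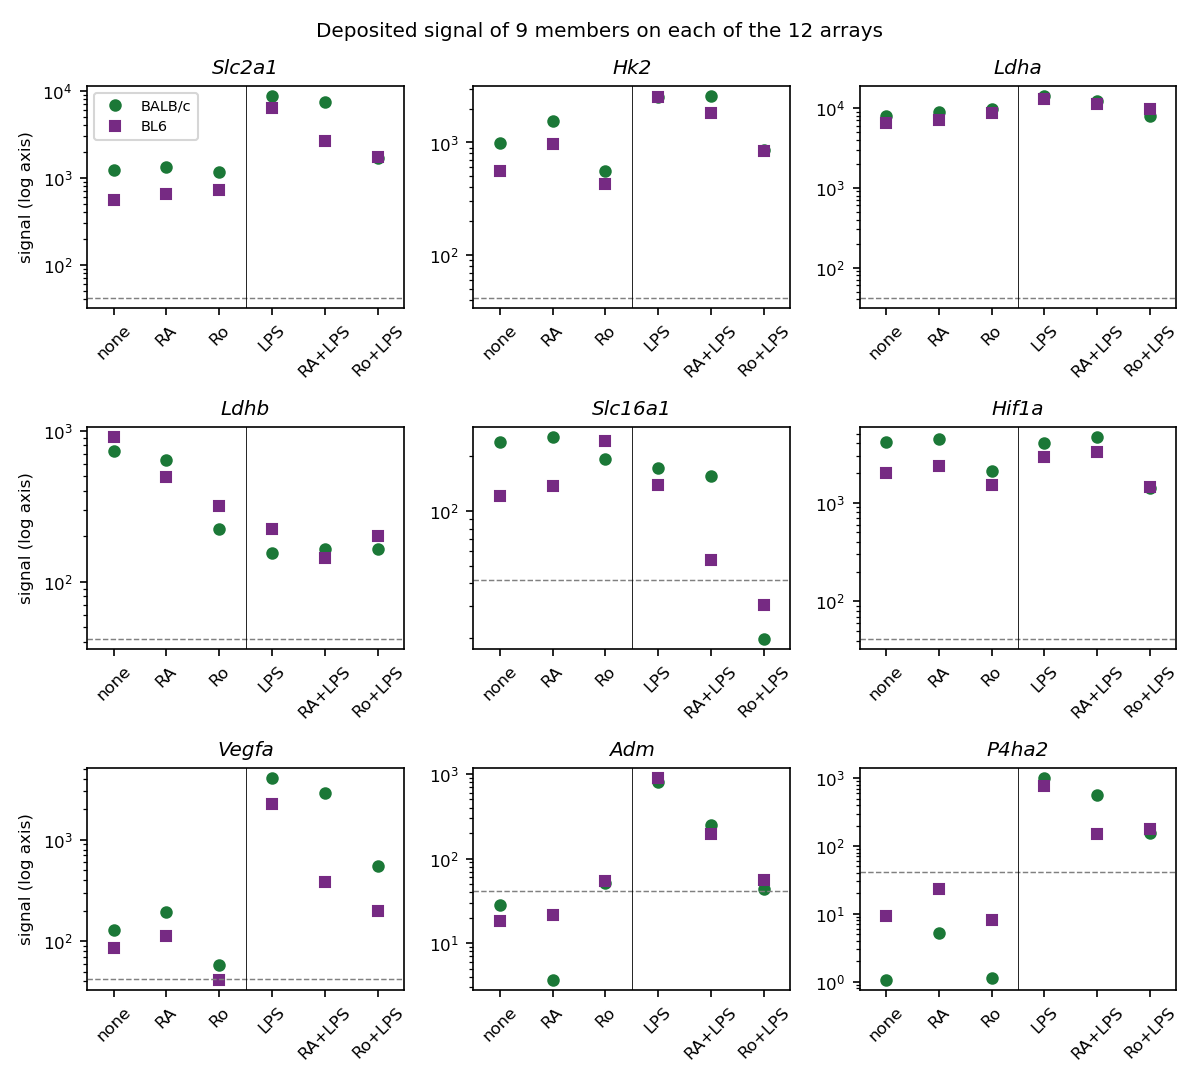
The deposited signal (y axis, log scale) of 9 members on each of the 12 arrays, by condition, with BALB/c as circles and BL6 as squares; the dashed line is the highest array median (41.8). Vegfa, Adm and P4ha2 are highest, within each strain, on the array with LPS and no retinoid, and on the Ro arrays with LPS Adm is at 43.4 and 55.4.

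The response to LPS was then taken in each retinoid condition apart, with 2 arrays against 2 in a model of the 6 conditions. Without retinoid 24 members rose and 2 fell (background 8.07% and 37.6%), and the median member moved by 1.57. In RA cultures 14 rose and 3 fell (background 6.56% and 28.6%, median 0.80), and in Ro cultures 12 rose and 4 fell (background 6.02% and 24%, median 0.67). Under quantile normalization 25 rose and 2 fell without retinoid (background 16.3% and 22.1%), 19 and 2 with RA (12.5% and 16.9%) and 16 and 1 with Ro (12.2% and 15.5%). Without strain as a block, the members called were 9 in RA and 5 in Ro cultures. Leaving out either RA array without LPS gave 10 in RA cultures, and the BALB/c array of RA plus LPS 11. In Ro cultures the count was 5 without the BALB/c Ro array, 8 without the BL6 Ro array and 10 without the BL6 array with Ro and LPS. Egln3, Vegfa, Bnip3, Ndrg1, P4ha1, P4ha2, Hk2 and Tpi1 rose in all 3. Vegfa moved by 5.18 ± 0.50 without retinoid, 3.12 ± 0.50 with RA and 2.77 ± 0.50 with Ro. Pdk1 was among the 3 that fell in RA cultures, but its change was 0.27 in BALB/c and -1.22 in BL6. That call was kept under 5 of 21 alternatives. Slc16a1 passed in Ro cultures and not in the other two, where its values were 0.41 ± 0.41 and -0.50 ± 0.41. In Ro cultures it fell by 2.16 ± 0.41 on the log2 scale, to signals below background (19.8 and 30.6).

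Whether retinoids altered the LPS response was tested by interaction terms. With Ro, 2 members had a smaller LPS response than without retinoid (background 0.387% lower and 0.258% higher, and 0.87% and 0.532% under quantile normalization, where the same count passed), and 31 of 33 values lay below the median gene. Adm had an interaction of -4.71 ± 0.48 (adjusted p = 0.00318): its signals with LPS were 809 in BALB/c and 892 in BL6 without retinoid and 43.4 in BALB/c and 55.4 in BL6 with Ro, against 28.1 and 18.1, and 51.3 and 54.6, without LPS. The LPS change of Adm was 5.01 ± 0.34 without retinoid and 0.26 ± 0.34 with Ro (adjusted p = 0.887 for the latter). Slc2a1 had an interaction of -2.42 ± 0.43 (adjusted p = 0.0458), with 8666 in BALB/c and 6334 in BL6 under LPS alone and 1671 in BALB/c and 1728 in BL6 under Ro and LPS. The call of Adm held under every alternative tried, and that of Slc2a1 was lost under 13 of 21, including without the strain block (adjusted p = 0.388). The interaction of RA with LPS gave 0 members past the threshold in limma (12 at an unadjusted p under 0.05, and 0 under quantile normalization, with 0% higher and 0% lower over all genes), although 29 of 33 values lay below the median gene. The LPS responses of the strains were not shown to differ for any member (0 past the threshold in limma, 3 at an unadjusted p under 0.05, and 0 under quantile normalization, with 0.00806% higher in BALB/c and 0.105% lower over all genes). Eno2 had 2.91 ± 0.96 (adjusted p = 0.362).

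**Figure D3:**
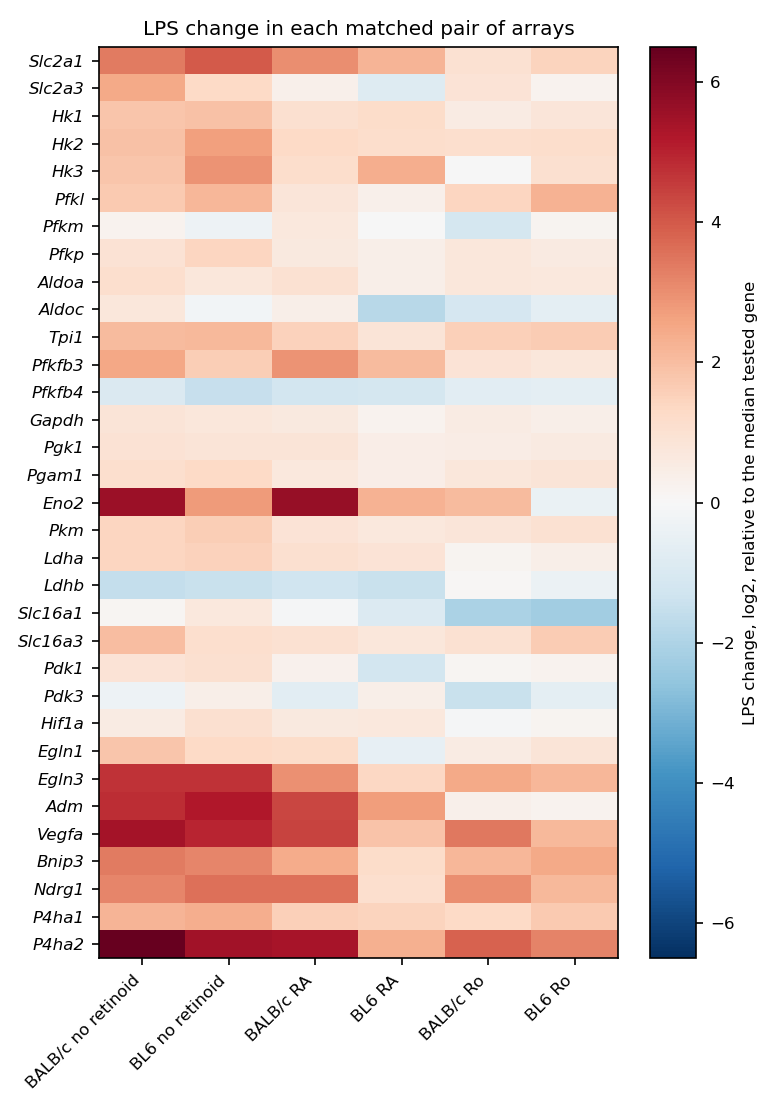
The LPS change (colour, log2, relative to the median tested gene) of each member in each of the 6 pairs of arrays that share strain and retinoid, with red above 0 and blue below. P4ha2 reaches 6.46 in BALB/c without retinoid, and Pfkfb4 is blue in all 6 pairs.

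Ro was compared with no retinoid, first over both LPS states (4 arrays against 4). No member rose and 5 fell, where over all tested genes 14.2% were higher and 4.37% lower. Under quantile normalization 11 fell and none rose (background 7.63% and 6.61%). The 5 were Vegfa (-2.23 ± 0.48, adjusted p = 0.017), Bnip3 (-1.31 ± 0.30), Hk2 (-1.30 ± 0.23), Hif1a (-1.20 ± 0.19) and P4ha1 (-1.07 ± 0.21). Ldhb had -1.02 ± 0.30 at its brightest probe set and was not among them. Its dimmer probe sets gave larger changes (-1.82 ± 0.31, -2.31 ± 0.28 and -2.35 ± 0.29). Hif1a was 2091, 1511, 1396 and 1444 on the 4 Ro arrays and 4105, 2012, 3981 and 2901 on the 4 without retinoid (BALB/c, BL6, then both with LPS). In each strain and LPS state the Ro array was the lower. Bnip3, in the same order, was 635, 683, 2025 and 3309.7 with Ro and 1075, 1070.4, 7742 and 6827 without retinoid, and P4ha1 was 415, 222, 747 and 636 with Ro and 716, 277, 2268 and 1055 without. Vegfa was 57.7, 41.5, 550.2 and 199.7 with Ro and 128, 85.9, 4053 and 2253 without. In each of these the Ro array was again the lower of every matched pair. The dimmer Vegfa probe set had a smaller change with Ro, -1.82 ± 0.25. The count was 3 without the strain block and 3 without the BALB/c array of LPS alone, the BL6 array of LPS alone or the BALB/c array with Ro and LPS. It was 8 without the BL6 array with RA and LPS.

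The comparison with Ro was then made in each LPS state, 2 arrays against 2. With LPS, 14 of 33 members fell with Ro and none rose (background 5.59% lower and 16% higher), with a median of -0.91; all 14 also fell under quantile normalization, where 17 did in all (background 9.05% lower and 11.2% higher). Without LPS 1 fell and 1 rose (background 1.21% and 1.45%), with a median of -0.18; under quantile normalization 5 fell and 1 rose (background 2.34% and 1.54%). The difference between the states was past the threshold for Adm and Slc2a1 among the members, as the interaction terms show. The median over members of the log2 signal, relative to each gene's mean over the 12 arrays, was 1.26 and 0.94 with LPS alone (BALB/c and BL6), 0.79 and 0.32 with RA and LPS, and 0.07 and 0.00 with Ro and LPS. On the arrays without LPS it lay between -0.73 and -0.37.

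By role, the 14 falls with Ro under LPS comprised 5 of 6 HIF-1 targets outside glycolysis, 2 of 3 oxygen sensing genes, 2 of 3 hexokinases, Slc2a1, Eno2 and Pgam1, and Ldha and Slc16a1. Vegfa was 4053 in BALB/c and 2253 in BL6 with LPS alone and 550.2 in BALB/c and 199.7 in BL6 with Ro and LPS, and fell by 3.41 ± 0.50 on the log2 scale (10.6-fold lower, adjusted p = 0.00232). P4ha2 was 1001 in BALB/c and 774 in BL6, then 157 in BALB/c and 178 in BL6, and had -2.58 ± 0.53. Hk2 was 2545 in BALB/c and 2540.4 in BL6, then 862 in BALB/c and 836 in BL6, and had -1.85 ± 0.24. In all of these both Ro arrays lay below both arrays of LPS alone. Adm had -4.02 ± 0.34, Eno2 -3.03 ± 0.76, Slc2a1 -2.40 ± 0.31, Slc16a1 -2.36 ± 0.41 and Hk3 -2.06 ± 0.42. Smaller values were those of Egln3 (-1.98 ± 0.50), Bnip3 (-1.77 ± 0.33), Hif1a (-1.54 ± 0.24), P4ha1 (-1.44 ± 0.27), Ldha (-0.91 ± 0.15) and Pgam1 (-0.75 ± 0.15). Ndrg1, the target that did not pass, was 5664 in BALB/c and 2866 in BL6 with LPS alone and 6784 in BALB/c and 5180.0 in BL6 with Ro and LPS, and had 0.27 ± 0.54 (adjusted p = 0.497). Of the 30 further HIF-1 targets, 10 fell with Ro under LPS and 1 rose (median -1.08; background 5.59% lower and 16% higher). Of the 27 genes of pyruvate entry and the citrate cycle 1 fell and 4 rose, which is near that background. Averaged over LPS states, Hmox1 had -2.09 ± 0.22 and Plin2, a coat protein of lipid droplets, -1.07 ± 0.16 with Ro.

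**Figure D4:**
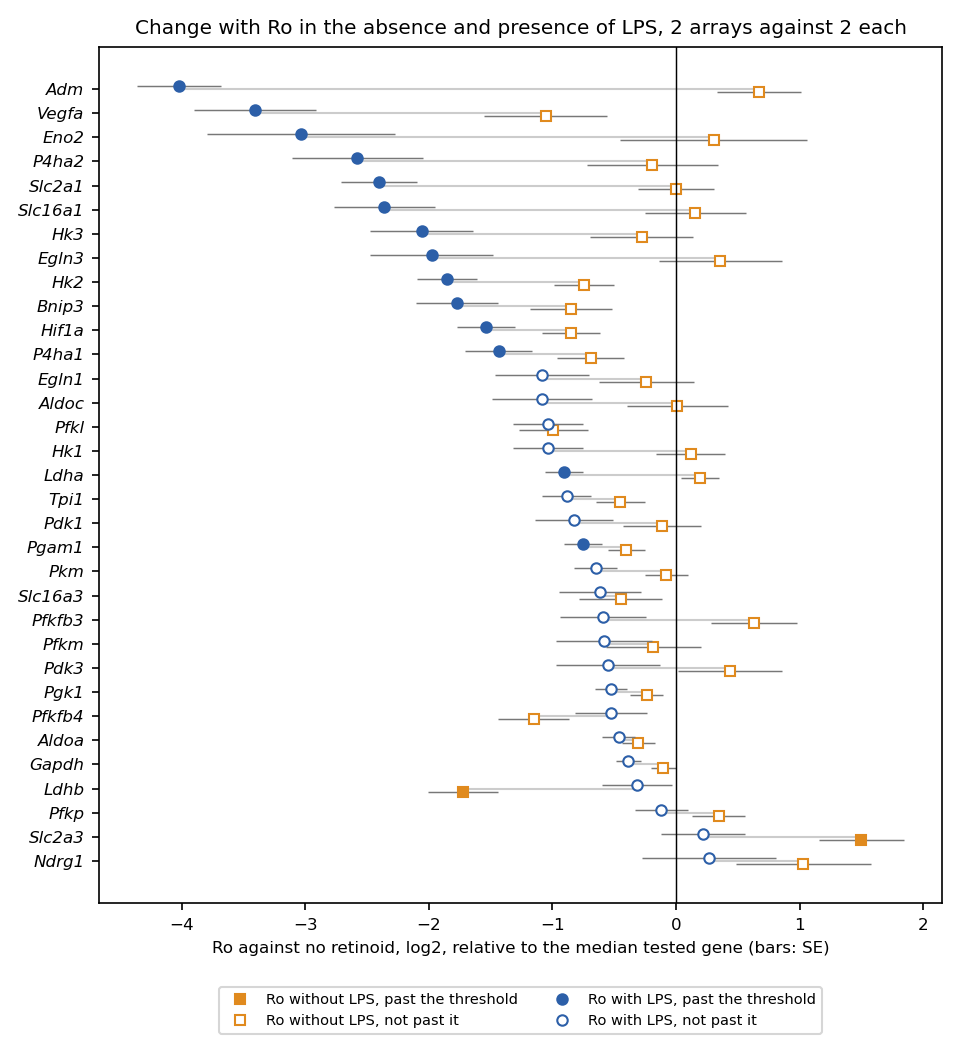
The change with Ro against no retinoid (x axis, log2, relative to the median tested gene, bars show the standard error, 2 arrays against 2 each) without LPS (squares) and with LPS (circles), filled where past the threshold. With LPS 14 members are filled on the left of 0, from Pgam1 at -0.75 to Adm at -4.02.

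Leaving out the BALB/c or the BL6 array of LPS alone gave 7 and 5 in place of 14, leaving out the BALB/c array with Ro and LPS gave 5, and 8 passed without the strain block. The calls of Adm, Vegfa, Slc2a1 and Hk2 were kept under all 21 alternatives, and the least kept was that of Pgam1 (9 of 21). This comparison and the LPS response without retinoid share the 2 arrays of LPS alone. Macrophage and monocyte markers moved with Ro too: 5 of 7 fell under LPS and none rose, and their summed signal was 32743 to 36031 with LPS alone and 12026 to 14117 with Ro and LPS. Over both LPS states 4 of the 7 fell, among them Cd68 (-1.95 ± 0.27) and Mrc1 (-2.08 ± 0.40). Of 8 dendritic cell markers 3 rose over both states, Cd80 (1.21 ± 0.17), Cd86 (0.99 ± 0.27) and Zbtb46 (1.74 ± 0.31), and none fell; Itgax (-0.63 ± 0.15), Cd74 (-0.23 ± 0.08), H2-Aa (-0.23 ± 0.11), H2-Ab1 (-0.15 ± 0.11) and Flt3 (0.87 ± 0.49) did not pass. With LPS, 3 of the 8 rose and 1 fell. Of 4 mast cell and basophil markers tested, Cpa3 rose (1.77 ± 0.43, adjusted p = 0.0113). The summed signal of the 5 such markers on the array was 88.2 to 2577 on the 4 Ro arrays and 55.4 to 339.9 on the 4 without retinoid. The highest sum was that of the BL6 Ro array without LPS, where Cpa3 was 1624 and Mcpt8 563. In BALB/c with LPS the sum was 88.2 with Ro and 94.5 without retinoid. The part of these in the members' changes was not tested. The 3' to 5' ratio of Gapdh was 0.768 to 0.789 on Ro arrays and 0.782 to 0.842 on the others.

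Without LPS the 2 members past the threshold with Ro were Ldhb and Slc2a3. Ldhb was 734 in BALB/c and 908 in BL6 without retinoid and 223 in BALB/c and 315 in BL6 with Ro, and fell by 1.72 ± 0.28 on the log2 scale (3.3-fold lower, adjusted p = 0.016). Slc2a3 was 232 in BALB/c and 62.1 in BL6 without retinoid and 698 in BALB/c and 254 in BL6 with Ro, and rose by 1.50 ± 0.34 (adjusted p = 0.0301). Both Ro arrays lay on one side of the controls of their strain in each case, but for Slc2a3 the BALB/c control (232) and the BL6 Ro array (254) were close. Neither passed when any 1 of the 4 arrays concerned was left out, or without the strain block (0 members, limma).

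RA against no retinoid gave 0 members past the threshold over both LPS states (limma, 2 at an unadjusted p under 0.05, 1 past the threshold under quantile normalization), 0 without LPS (7) and 0 with LPS (9), with the counts at an unadjusted p under 0.05 in parentheses. Over all tested genes 0% were higher and 0% lower over both states (0% and 0.0322% under quantile normalization). Without LPS these shares were 0.0322% and 0.105% (0.0806% and 0.145% under quantile normalization), and with LPS both were 0% under either scaling. Pfkp had the smallest p. It was 2198, 1169, 2269 and 1319 on the RA arrays (BALB/c, BL6, then both with LPS) and 3205, 2118, 4122 and 4016 without retinoid. The RA array was the lower in all 4 matched comparisons, with a change of -0.98 ± 0.16 (adjusted p = 0.0642), and adjusted p = 0.0457 under quantile normalization. Ndrg1 was 483, 265, 3916 and 499 with RA and 906, 328, 5664 and 2866 without retinoid, a change of -1.07 ± 0.39 (adjusted p = 0.5). With LPS, 31 of 33 members lay below the median gene in RA cultures, with a median of -0.49, and Adm had -1.96 ± 0.34 (adjusted p = 0.181). This comparison, the interaction of RA with LPS and the LPS response without retinoid share the 2 arrays of LPS alone. The members' median was highest on those arrays (1.26 in BALB/c and 0.94 in BL6). Without the BALB/c array of RA plus LPS, 6 members passed. Without LPS the median was 0.20 and Egln3 had 1.97 ± 0.50 (adjusted p = 0.19).

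RA and Ro were compared directly over both LPS states (4 arrays against 4). Here 5 members were higher with RA and 3 lower (background 5.37% and 14.5%), and 10 and 2 under quantile normalization (8.52% and 8.91%). Higher with RA were Vegfa (1.69 ± 0.48), Hk2 (1.52 ± 0.23), P4ha1 (1.45 ± 0.21), Hif1a (1.36 ± 0.19) and Pgam1 (0.64 ± 0.13), which was 7967, 5924, 8669 and 6775 with RA and 5095, 4188, 6130.4 and 6363 with Ro (BALB/c, BL6, then both with LPS). Hk2 was 1561, 961, 2581 and 1827 with RA and 561, 432, 862 and 836 with Ro, so that the lowest RA array lay above the highest Ro array. Lower with RA were Ndrg1 (-1.71 ± 0.39), Slc2a3 (-1.10 ± 0.37, adjusted p = 0.0902 under quantile normalization) and Pfkp (-1.09 ± 0.16). Pfkp with Ro was 4293, 3193, 5116 and 4085, above every RA array. The count of 8 was 5 without the strain block. The call of Vegfa was kept under 9 of 24 alternatives, that of Pgam1 under 13 of 24 and that of Slc2a3 under 15 of 24; without the strain block Vegfa had adjusted p = 0.135 and Pgam1 adjusted p = 0.0949. The other 5 calls were each kept under at least 23 of 24. In the same comparison 5 of 7 macrophage and monocyte markers were higher with RA, among them Cd68 (2.39 ± 0.27), Mrc1 (2.08 ± 0.40), Mertk (1.66 ± 0.26) and Adgre1 (1.33 ± 0.33), and none lower. Of 8 dendritic cell markers 5 were lower with RA (4 under quantile normalization) and none higher, among them Zbtb46 (-2.42 ± 0.31), Cd86 (-1.87 ± 0.27) and Cd80 (-1.79 ± 0.17). Of 4 mast cell and basophil markers 2 were lower, Cpa3 (-2.18 ± 0.43) and Mcpt8 (-1.62 ± 0.54). Their part in the difference between RA and Ro was not tested.

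Between the strains, 6 members were higher in BALB/c and 1 in BL6 (background 11.5% and 3.9%), and likewise 6 and 1 under quantile normalization (7.29% and 8.14%). Slc2a3 had a lowest, median and highest signal of 232, 553 and 927 in BALB/c and 47.6, 121 and 258 in BL6, a difference of 1.81 ± 0.30 (adjusted p = 0.00188). Its strains overlapped, but in each of the 6 conditions the BALB/c array was the higher. Pdk1 had 87.3, 123 and 166 in BALB/c and 153, 278 and 445 in BL6, and was lower in BALB/c, with -1.23 ± 0.23 (adjusted p = 0.00892). Ndrg1 (0.91 ± 0.32), P4ha1 (0.69 ± 0.17), Hif1a (0.40 ± 0.15), Pkm (0.38 ± 0.12) and Pfkp (0.37 ± 0.13) were higher in BALB/c. The calls of Slc2a3, Pdk1, P4ha1 and Pkm were kept under all 20 alternatives, that of Pfkp under 14 of 20, that of Hif1a under 11 of 20 and that of Ndrg1 under 8 of 20; Hif1a was lost with a common trimmed mean (adjusted p = 0.0646) and Ndrg1 also under quantile normalization (adjusted p = 0.0794). Ndrg1 had 483, 2547 and 6784 in BALB/c and 265, 934 and 5180.0 in BL6, with overlap. P4ha1 had 415, 896 and 2268 in BALB/c and 222, 593 and 1300.2 in BL6, and Hif1a had 1396, 4043 and 4621 and 1444, 2196 and 3276, also with overlap. The count of 7 was 4 without the BALB/c array of RA plus LPS, the BL6 control array or the BL6 RA array, and 11 without the BALB/c array with Ro and LPS. Markers of other cells differed between the strains as well: Cpa3 (-2.30 ± 0.35) and Mertk (-1.79 ± 0.21) were lower in BALB/c and Cd14 (0.61 ± 0.15) was higher, and their part was not tested. Strain and any batch that runs with the replicate number cannot be told apart, and a sequence difference between the strains under a probe was not tested.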

How the data were processed

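Messenger RNA of 12 cultures was measured on single-colour Affymetrix arrays. The deposited table gives an intensity per probe set, unlogged, from 0.02 to 17488; the submitters' processing notes name MAS5, and its version, scaling target and detection calls are not given in the sources used here. Of 45101 probe sets, 34958 were annotated to 1 gene and 932 to several, and 34754 matched the RefSeq gene list. The probe set of highest mean signal stood for a gene, and it was kept if above its array's median on at least 2 arrays.

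Values were taken as log2(signal + 16), and models were fitted in R 4.3.3 with limma 3.58.1 (lmFit, then eBayes with a trend on intensity), with Benjamini-Hochberg adjustment over 12407 genes. For averaged comparisons the model had additive terms for retinoid, LPS and strain; for single conditions and retinoid interactions it had 6 conditions and strain. Strain was a block because the replicate number in the labels is the strain; across genes, the BALB/c minus BL6 differences of 2 conditions had Pearson correlations from 0.304 to 0.700 (15 pairs of conditions). The fit was tested on simulated data. Python 3.11.15 made tables and figures. Alternatives were the scaling, the added value (1 and 64), the filter, the probe set rule, the trend, the block, the model, each strain alone and each array left out. Members given by array were, for LPS, the 8 largest rises and up to 6 falls; for other averaged comparisons up to 5 members past the threshold in each direction, or else the 2 of smallest p; members with an interaction; and Hif1a, Egln1, Egln3 and Gapdh. Of each related list, up to 4 genes of smallest p for LPS and 2 for Ro could be named. The members and lists were chosen with earlier results of these data known.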

Additional observations from a re-analysis of the deposited data

Results flagged for a closer look

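For 2 members the term for the interaction of Ro with LPS passed the threshold: the LPS response differed between Ro cultures and cultures without retinoid in a test of the difference itself. Adm had -4.71 ± 0.48 on the log2 scale (adjusted p = 0.00318, limma) and Slc2a1 had -2.42 ± 0.43 (adjusted p = 0.0458, limma). The call of Adm was kept under 21 of 21 alternatives and that of Slc2a1 under 8 of 21, not without the strain block (adjusted p = 0.388). In both strains the LPS change of Adm was smaller with Ro than without retinoid, and the same held for Slc2a1.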

How the results depend on the processing

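Counts are of members past the threshold in limma. For LPS over all conditions the count of 27 stayed within 1.5 times under every alternative (19 in BALB/c alone, 20 in BL6 alone, 25 to 28 with 1 array left out), and 15 of the 27 calls were kept under all of them. In BALB/c alone the fall of Aldoc turned to 0.026, and in BL6 alone that of Pdk3 to 0.080; the cause was not tested. Without the replicate block of strain, counts were 3 for Ro (5 with it), 5 for RA against Ro (8), 9 for LPS in RA cultures (17), 5 for LPS in Ro cultures (16), 8 for Ro with LPS (14), 0 for Ro without LPS (2) and 1 for the interaction of Ro with LPS (2). Quantile normalization gave 1 for RA, 11 for Ro and 6 for Ro without LPS. A common trimmed mean gave 11 for Ro and 4 for strain. The model of 6 conditions gave 1 for RA, 16 for Ro and 15 for RA against Ro. BALB/c alone gave 0 for Ro and 4 for RA against Ro, and BL6 alone 0 and 2. Without an intensity trend strain gave 4, and the interaction of Ro with LPS gave 1 there, with 1 added and without the filter. The mean of all probe sets gave 1 for Ro without LPS. With 1 array left out the counts were 3 to 8 for Ro, 6 to 11 for RA against Ro, 4 to 11 for strain, 20 to 27 for LPS without retinoid, 10 to 20 in RA and 5 to 17 in Ro cultures, 0 to 2 for Ro without LPS, 5 to 16 for Ro with LPS, 0 to 6 for RA with LPS and 1 to 3 for the interaction of Ro with LPS. With 1 array of a condition left, that array is assumed to vary like the others. The remaining comparisons gave 0 throughout. Signals near background limit the size of change of the members Eno2, Adm, P4ha2 and Slc16a1. The same holds for Nos2, Plod2, Arnt2 and Slc16a7 of the related lists. Signals near the top of the scale limit that of Gapdh, Pgk1, Aldoa and Ldha.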
